A study of Oryza sativa with 16 samples.

Results

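Chromosome ends of rice held open chromatin at nearly the same density as the rest of the genome. The 22 ends studied here covered more bases after cold and after 30 min of heat than in control seedlings. They covered fewer after 3 h of heat and 6 h of salt. The rest of the genome differed from the control in the same direction after each of these treatments. FAIRE-seq recovers the DNA that stays free of protein after formaldehyde crosslinking and shearing, so that stretches with many reads (peaks) mark open chromatin. With equal numbers of peaks per condition, the differences at the ends were smaller. Peaks of all 7 deposited lists were merged where they overlapped or touched, and the resulting regions whose midpoint lay within 500 kb of a chromosome end were taken as members. The ends are position 0 of each chromosome and, at the other side, the largest peak end seen in any list, which is called the far end. The position 0 ends of chromosomes 11 and 12 were left out. The rule gave 3620 regions of 119009 in all, or 3.04% of the regions in windows that make up 2.95% of the genome. The other 115389 regions, with 262 at the left-out ends among them, are called the rest of the genome.

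The lists come from 14-day-old seedlings of the Japonica cultivar Nipponbare. Control seedlings stayed at 28 °C. Cold was 4 °C for 12 h or 24 h, heat was 42 °C for 30 min or 3 h, and salt was 250 mM NaCl for 2 h or 6 h. Each condition had 2 FAIRE-seq replicates but 1 list of peaks, so no value below has a replicate error and no test between conditions or between ends and rest was possible. Seedlings were used, with no tissue or cell type named. A peak present in fewer cells and a weaker peak in every cell therefore cannot be told apart. The lists hold no read counts, and the depth behind each peak is therefore unknown from them. They held between 87437 peaks (salt 6 h) and 110010 peaks (cold 12 h), which covered between 68.6 and 96.2 Mb.

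A plant chromosome ends in a telomere, an array of short repeats that protects the DNA end, and next to it lies the subtelomere, where duplicated sequence and genes alternate. In rice, genes are dense along the outer parts of most chromosome arms, while repeats and closed chromatin gather around the centromeres. In Nipponbare an array of ribosomal RNA genes lies at the short-arm end of chromosome 9. Reads that fit several positions in the genome were removed by the authors, so stretches of near-identical repeats can hold few peaks in any list.

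Of the 22 regions nearest to an end, 16 had a peak in all 7 lists, and the edge of 19 of the 22 lay within 5 kb of the end. Over the outermost 10 kb, 35 of 60 regions had a peak in all lists (58.3%), close to the 57.4% among all regions of the genome. At 14 ends the region touched the end, which at the far side follows from how that end was set. A short peak of a single list set the far end of chromosome 8 (salt 6 h, 212 bp) and of chromosome 10 (heat 30 min, 207 bp). On chromosome 5, the far end was closed by chr5:29955598-29957013, with peaks covering 1376 bp in the control and from 1271 bp (heat 3 h) to 1406 bp (cold 24 h) in the stress lists. Its fold enrichment, which MACS2 gives as the read pile-up of a peak over the expected background, was 6.55 in the control. Bases at the outer edge of chromosome 6 differed more between conditions, since chr6:31235369-31236321 was covered over 560 bp in the control, 912 bp after cold 12 h, 877 bp after cold 24 h and 918 bp after heat 30 min, and had no peak after heat 3 h or either salt treatment. Its peaks were weak, with a fold enrichment between 1.64 (heat 30 min) and 1.83 (control). Within their lists they ranked between percentile 4.80 (cold 24 h) and 27.1 (cold 12 h). The most distant first region was that of the position 0 end of chromosome 9, chr9:37772-41168, which began 37.8 kb from the end. It was covered over 1624 bp in the control, 2788 bp after cold 12 h and 784 bp after salt 6 h. Within the outermost 10 kb of the 22 ends, peaks covered 22.5% of the bases in the control, between 23.5% and 24.1% in both cold lists and heat 30 min, 22.3% after salt 2 h, 19.2% after salt 6 h and 18.5% after heat 3 h.

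In the control, peaks covered 22.6% of the bases in the 22 windows of 500 kb (SD over ends 4.04) and 22.2% of the rest of the genome. The control share ran from 9.51% at the position 0 end of chromosome 9 to 27.8% at the far end of chromosome 5, with a median of 23.4% per end. At 14 of the 22 ends it was higher than in the rest of the same chromosome. Ends at position 0 had a median of 22.8% and far ends of 24.0%. These medians are not alike, since a far window starts at a peak by the rule. A window at position 0 keeps any stretch without peaks at its tip. The position 0 end of chromosome 9 was the lowest in every list. It was covered over 9.51% in the control, 11.5% after cold 12 h, 9.62% after cold 24 h, 10.7% after heat 30 min, 8.46% after heat 3 h, 9.18% after salt 2 h and 8.20% after salt 6 h. No other end overlapped these values, and the next lowest in the control were the position 0 end of chromosome 10 with 15.5% and the far end of chromosome 11 with 18.1%. Of its 50 bins of 10 kb, 13 had no peak in any list, and the end held 95 regions, the fewest of the 22 ends, which held up to 192. The far end of chromosome 11 had the longest stretch between neighbouring regions, 86392 bp, and the position 0 end of chromosome 10 had one of 43742 bp. The short arms of chromosomes 4 and 10 are rich in heterochromatin, yet the outer 500 kb of chromosome 4 at position 0 were covered over 22.7% in the control, close to the median end.

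**Figure D1:**
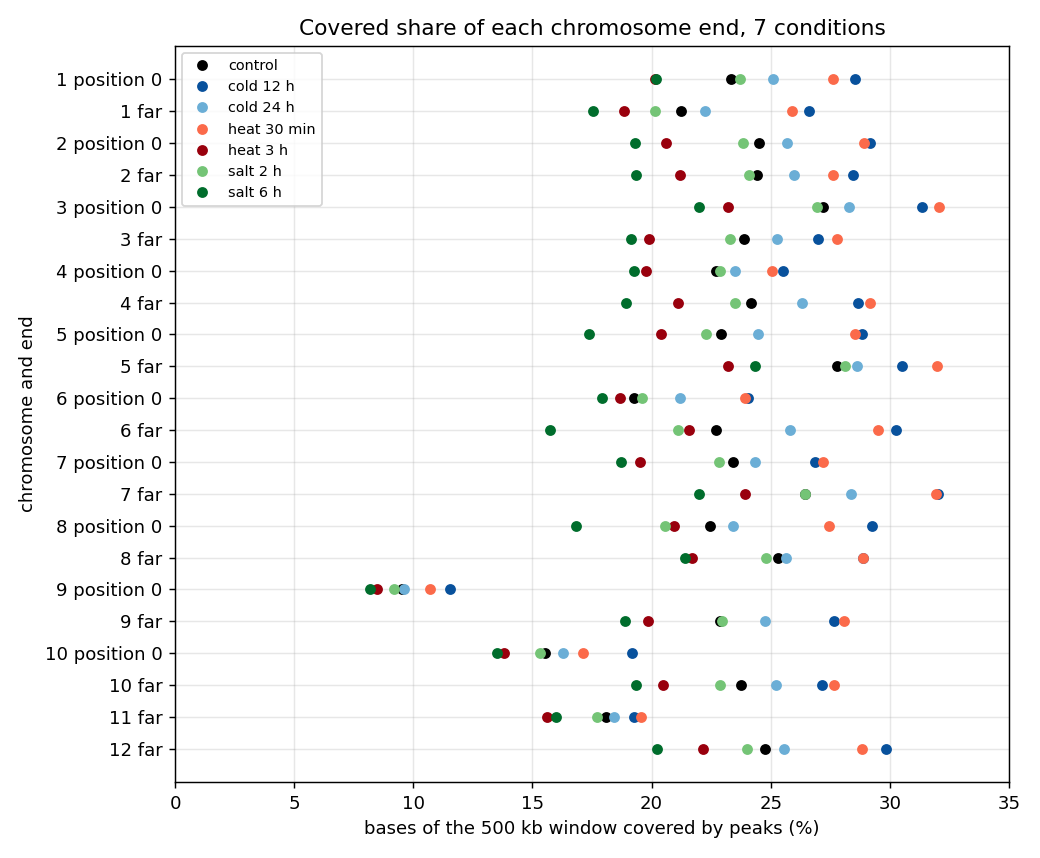
Bases covered by peaks, in percent of each 500 kb window, on the x axis, with the 22 chromosome ends on the y axis. Each point is 1 of the 7 peak lists. The position 0 end of chromosome 9 lies lowest (9.51% in the control) and the far end of chromosome 5 highest in the control (27.8%).

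With all 22 ends together, the covered share was 26.8% after cold 12 h, 26.6% after heat 30 min, 23.8% after cold 24 h, 22.6% in the control, 22.1% after salt 2 h, 19.8% after heat 3 h and 18.5% after salt 6 h. Cold 12 h was the highest list at 13 ends and heat 30 min at the other 9. Salt 6 h was the lowest at 19 ends and heat 3 h at 3. The SD over ends ran from 3.28 to 5.04 percentage points, and the differences from the control were also taken end by end.

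After cold 12 h the ends covered 2.95 Mb against 2.48 Mb in the control, a difference of 19.0% (SD over ends 6.55), and the value was positive at 22 of 22 ends. The same difference was 16.2% in the rest of the genome. Cold 24 h differed from the control by 5.62% (SD 2.99), positive at all 22 ends, against 3.02% in the rest. Heat 30 min differed by 18.0% (SD 5.34), also positive at all 22 ends, against 14.9% in the rest. The opposite sign was seen at 22 of 22 ends after heat 3 h, with -12.3% (SD 3.59) against -15.7% in the rest, and after salt 6 h, with -18.1% (SD 5.18) against -17.1%. Salt 2 h stood close to the control, with -2.03% (SD 2.59) against -2.13% in the rest, and it was negative at 17 ends and positive at 5. In the first 4 of these lists, the ends were above the rest by 2.60 to 3.38 percentage points, and the value of an end was above that of the rest of its own chromosome at 14 ends after cold 12 h, at 18 ends after both cold 24 h and heat 3 h, and at 17 ends after heat 30 min. After salt it held at 11 ends (2 h) and 8 ends (6 h).

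The lists differ in their number of peaks, and most of these differences were smaller at equal numbers. When each list was cut to its 87437 peaks with the best fold enrichment, cold 12 h stood 9.68% above the control, heat 30 min 9.24%, cold 24 h 4.18% and salt 2 h 0.20%, while heat 3 h differed by -6.37% and salt 6 h by -9.96%. The gap between ends and rest then turned to -0.29 percentage points for cold 12 h, while cold 24 h kept 2.50 points, heat 30 min 1.43, heat 3 h 2.83, salt 2 h 0.17 and salt 6 h -1.39. What the number of peaks in a list contributed to them was not tested otherwise, and the numbers of reads were not compared.

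**Figure D2:**
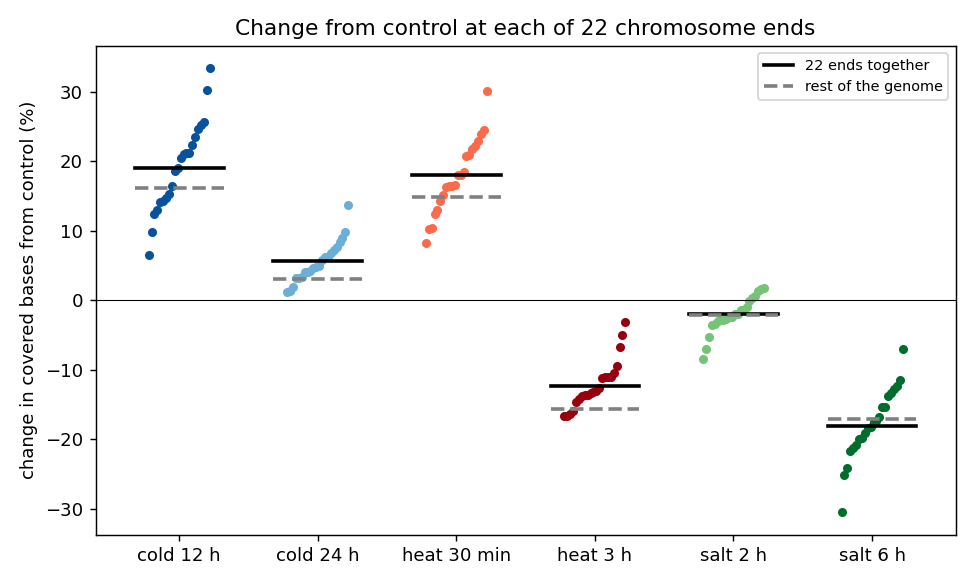
Difference in covered bases from the control (percent, y axis) for the 6 stress lists. Each point is 1 of the 22 ends, ordered by value within a list, the black line is all 22 ends together and the dashed line the rest of the genome. All ends are above 0 for both cold lists and heat 30 min, and all are below 0 for heat 3 h and salt 6 h.

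The far end of chromosome 6 had the most extreme values in several lists. Its window, chr6:30736322-31236321, was covered over 22.7% in the control, 30.3% after cold 12 h, 25.8% after cold 24 h, 29.5% after heat 30 min, 21.6% after heat 3 h, 21.1% after salt 2 h and 15.8% after salt 6 h. Both cold lists and heat 30 min were thus high and salt 6 h was low. The difference from the control was 33.4% after cold 12 h, 13.7% after cold 24 h and 30.1% after heat 30 min, each the highest of the 22 ends, and -30.6% for salt 6 h, the lowest of them. The rest of chromosome 6 gave 15.7%, 2.94%, 14.9% and -17.6% for the same lists. Cold 12 h covered more bases than the control in 42 of the 50 bins of 10 kb at this end and fewer in 6, and salt 6 h covered more in 1 bin and fewer in 45, so the differences were spread along the window. The next highest end for cold 12 h was the position 0 end of chromosome 8 with 30.3%, which was also the next lowest for salt 6 h with -25.1%. At the other end of chromosome 6, the values for heat 3 h (-3.12%) and salt 6 h (-7.08%) were the closest to 0 of the 22 ends. The far end of chromosome 11 stood at the opposite side, with 6.47% for cold 12 h and 8.20% for heat 30 min, the lowest of the 22 ends in both lists, while the rest of chromosome 11 gave 18.8% and 14.0%. Leaving out the far end of chromosome 6 gave 18.3% for cold 12 h and -17.5% for salt 6 h over the other ends.

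**Figure D3:**
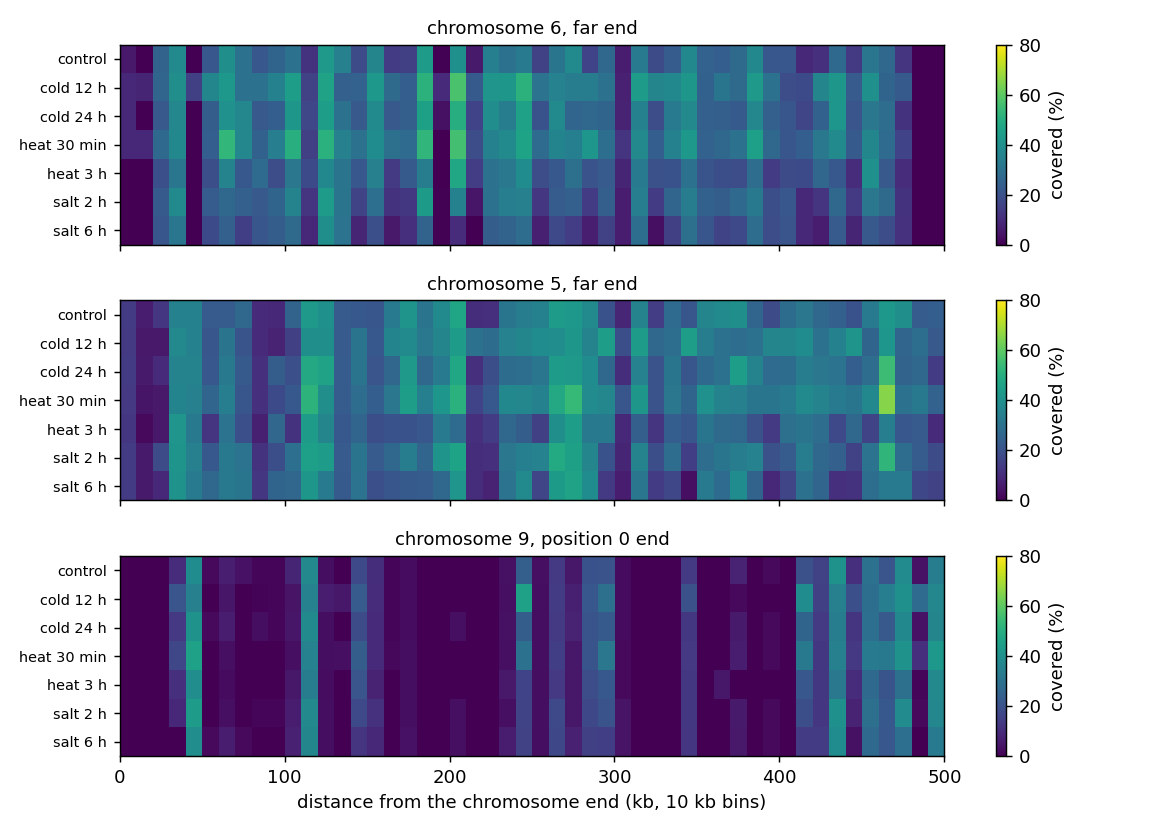
Covered share (percent, colour scale) in bins of 10 kb against the distance from the chromosome end (kb, x axis) in the 7 lists (y axis) for 3 ends. At the far end of chromosome 6, cold 12 h is above the control in 42 of 50 bins and salt 6 h below it in 45, at the far end of chromosome 5 no bin is without a peak, and at the position 0 end of chromosome 9 there are 13 such bins.

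Coverage also varied with the distance from the end. In bins of 50 kb, the control share was 23.3% in the outermost bin, highest at 100 to 150 kb with 26.1%, and lowest at 350 to 400 kb with 19.9%. From 500 kb to 1000 kb it was 21.8%, and from 2000 to 5000 kb it was 22.9%. The SD over ends was between 5.96 and 8.63 percentage points in the bins of 50 kb. Cold 12 h differed from the control by 9.46% in the outermost 50 kb, its lowest bin, and by 30.6% at 400 to 450 kb, its highest, but the bins between and beyond were uneven, with 11.7% at 100 to 150 kb, 26.7% at 150 to 200 kb, 13.7% at 250 to 300 kb and 11.9% at 450 to 500 kb. Heat 30 min gave 8.84% in the outermost bin, 23.7% at 400 to 450 kb and 15.2% at 450 to 500 kb. In the outer 100 kb as a whole, cold 12 h differed by 12.2%, against 20.8% between 100 and 500 kb, and it was lower in the outer part at 15 of 22 ends. For heat 30 min the values were 13.1% and 19.3%, lower in the outer part at 16 ends. Salt 6 h gave -14.7% in the outer and -19.0% in the inner part, and heat 3 h gave -14.4% and -11.8%. Single ends scattered widely in the outer part, from -9.95% to 38.0% for cold 12 h.

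**Figure D4:**
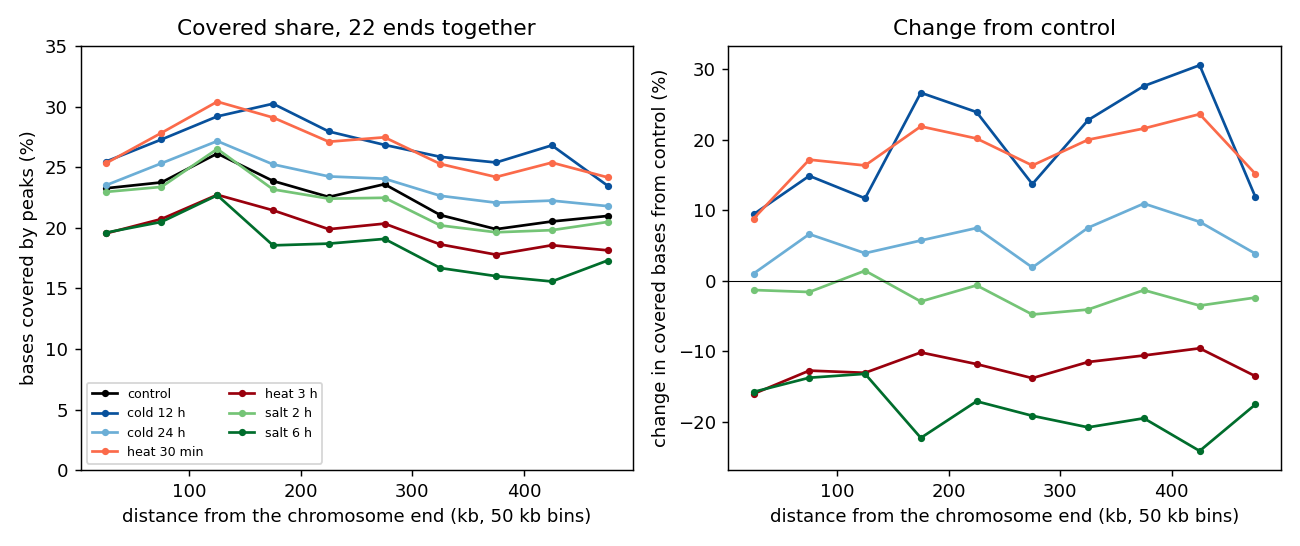
Left, bases covered by peaks (percent) in bins of 50 kb against the distance from the chromosome end (kb), summed over 22 ends for each of the 7 lists. Right, the difference from the control (percent) in the same bins, where cold 12 h is lowest in the outermost bin (9.46%), highest at 400 to 450 kb (30.6%) and uneven between them.

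Presence was compared next, with a region counted as present in a list when at least 1 bp of it was covered. Of the 3620 end regions, 2056 (56.8%, 95% Wilson interval from 55.2% to 58.4%) had a peak in all 7 lists, against 57.4% of all regions of the genome. The share among all regions is called the background below, and the ends were close to it. A peak in a single list was found for 422 (11.7%, background 11.2%), and 233 of these were in cold 12 h only (6.44%, background 6.25%). Heat 30 min followed with 95 regions found in no other list (2.62%, background 2.17%), then the control with 34 (background 0.868%), heat 3 h with 21 (background 0.561%), salt 6 h with 19 (background 0.639%), salt 2 h with 12 (background 0.329%) and cold 24 h with 8 (background 0.374%). By end, the share with a peak in all lists ran from 46.3% at the position 0 end of chromosome 9 to 65.9% at the far end of chromosome 11. Regions present in all lists were wide, with a median of 1178.5 bp, and those present in a single list were narrow, with 268 bp. A width is that of the merged peaks, so more lists can widen a region by construction. In single lists, the regions present in all lists had a median of 778 (salt 6 h) to 1008 (cold 12 h) covered bases. All end regions had a median width of 797.5 bp and ran from 200 to 5863 bp, and those of the rest had a median of 761 bp.

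**Figure D5:**
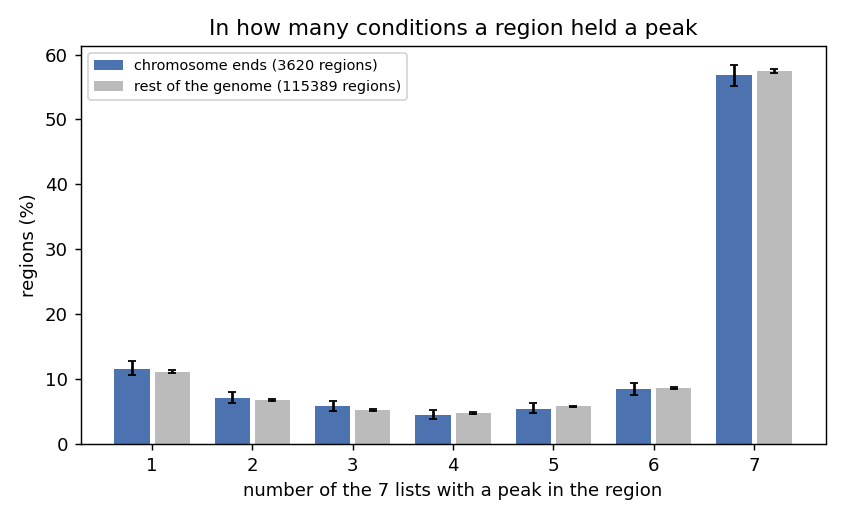
Share of regions (percent, y axis) by the number of lists with a peak (x axis), for the 3620 end regions and the 115389 regions of the rest, with 95% Wilson intervals that cover counting error only. The bars of both sets lie close together, with 56.8% and 57.5% in all 7 lists.

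The list with most end regions was cold 12 h, with a peak in 3142 (86.8%), followed by heat 30 min with 3117 (86.1%), cold 24 h with 2841 (78.5%), control with 2761 (76.3%), salt 2 h with 2693 (74.4%), heat 3 h with 2530 (69.9%) and salt 6 h with 2379 (65.7%). The order was the same in the rest of the genome, with 87.2%, 85.8%, 79.5%, 77.6%, 75.8%, 69.5% and 67.8%. Wilson intervals were from 85.7% to 87.9% for cold 12 h and from 84.9% to 87.2% for heat 30 min. The same regions were scored in every list, so these intervals do not compare the conditions. Among combinations of lists, 144 regions were present in cold 12 h and heat 30 min only (3.98%, background 3.88%), 172 in all lists but salt 6 h (4.75%, background 3.96%), 92 in all lists but heat 3 h (2.54%, background 3.31%) and 83 in all lists but these 2 (2.29%, background 2.70%). These shares lay within 1 percentage point of the background, and the differences were not tested. A single missing list other than these was rare, and the regions named here for it were chosen after their counts were seen. A peak in all lists but cold 12 h was found for 36 regions (0.994%, background 0.796%), and all lists but salt 2 h for 0 (background 0.0286%), where a count of 0 allows a share of up to 0.0829%. All lists but cold 24 h were found at 2 regions (0.0552%, background 0.0815%). These were chr1:43143559-43145569, covered over 1944 bp after cold 12 h and between 203 and 292 bp in the control and the other lists, and chr3:36393526-36394259, covered over 659 bp in the control and between 234 and 457 bp elsewhere. A peak missing from heat 30 min alone was seen at 3 regions (0.0829%, background 0.241%), chr2:35871669-35871996, chr5:17484-17844 and chr10:250514-251314, with 239, 272 and 563 bp in the control. A peak missing from the control alone was seen at 2 regions (0.0552%, background 0.243%). One of these, chr6:26100-27198, lay 26.6 kb from the position 0 end and was covered over 452 bp after cold 12 h, 906 bp after cold 24 h, 436 bp after heat 30 min, 951 bp after heat 3 h, 577 bp after salt 2 h and 1060 bp after salt 6 h. It was thus widest in the later list of each stress. The other lies near the far end of chromosome 10 and is described with the strongest stress peaks.

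Of the 2761 end regions with a control peak, 225 had none after cold 12 h (8.15%, background 7.57%), 153 none after cold 24 h (5.54%, background 5.33%), 127 none after heat 30 min (4.6%, background 4.61%), 406 none after heat 3 h (14.7%, background 16.6%), 192 none after salt 2 h (6.95%, background 6.92%) and 471 none after salt 6 h (17.1%, background 16.8%). Wilson intervals of these shares cover counting error only and treat neighbouring regions as independent, so they do not test the ends against the rest. Only for heat 3 h did the interval at the ends, from 13.4% to 16.1%, lie apart from that of the rest, from 16.4% to 16.9%. The other 859 end regions had no control peak, and each of them has a peak in at least 1 stress list by construction. Cold 12 h had a peak in 606 of them (70.5%, background 68.9%), cold 24 h in 233 (27.1%, background 26.9%), heat 30 min in 483 (56.2%, background 52.6%), heat 3 h in 175 (20.4%, background 21.2%), salt 2 h in 124 (14.4%, background 15.8%) and salt 6 h in 89 (10.4%, background 14.1%). For salt 6 h, the interval from 8.50% to 12.6% lay below that of the rest, from 13.8% to 14.7%. The value for salt 6 h stayed below that of the rest with only peaks of a −log10 q of at least 2 (13.8% against 17.7%) and with equal numbers of peaks (35.7% against 38.8%), and so did that of heat 3 h among regions with a control peak (16.8% against 18.2%, and 13.5% against 15.1%). Heat 3 h and salt 6 h were picked out after the intervals of all 6 stress lists were seen. The stricter lists and those of equal number are cut from the same peaks. No intervals are given for them, so whether ends and rest still lay apart was not tested.

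End regions with a peak in the control or a stress list but not in both were narrow and weak. Those with a stress peak but no control peak had a median width between 290 bp (salt 6 h) and 427 bp (cold 24 h and heat 3 h), and their peaks stood at a median percentile between 12.5 and 21.5 of fold enrichment in their own list. Those with a control peak but no stress peak had a median width between 307 bp (heat 30 min) and 572 bp (salt 6 h) and a median percentile between 16.6 and 26.3. The rest of the genome was similar. Without a control peak, its medians were 326 to 427 bp and percentile 11.9 to 23.1. Without a stress peak, they were 317 to 516 bp and percentile 17.9 to 26.0. Among end regions without a control peak, the strongest after cold 12 h was chr4:35209500-35209825, 292 kb from the far end. Its fold enrichment was 3.11 (percentile 97.7). It had peaks in both cold and both heat lists but not in the control or after salt. The far end of chromosome 10 held the strongest for 3 lists at once, cold 24 h, heat 3 h and salt 2 h. Its region chr10:22733961-22734718, 470 kb from the end, had a peak in all 6 stress lists and none in the control. Covered bases were 330 bp after cold 12 h, 442 bp after cold 24 h, 401 bp after heat 30 min, 758 bp after heat 3 h, 392 bp after salt 2 h and 486 bp after salt 6 h. The fold enrichment was 3.32 after cold 24 h (percentile 87.2) and 3.33 after heat 3 h (81.4). After salt 2 h it was 2.67, at percentile 53.7 and so near the middle of that list. For heat 30 min the strongest was chr11:28997907-28998833, 11.1 kb from the far end, covered over 296 bp after heat 30 min, 927 bp after cold 12 h, 287 bp after cold 24 h and 220 bp after heat 3 h. For salt 6 h it was chr7:53053-53287, with 235 bp after salt 6 h and fold enrichment 3.67, present also in cold 24 h and salt 2 h.

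In the other direction, the strongest control peak without a salt 6 h peak was chr3:36205674-36206297, 205 kb from the far end, with a fold enrichment of 3.84 in the control (percentile 96.4). It was covered over 365 bp in the control, 608 bp after cold 12 h, 520 bp after heat 3 h and 265 bp after salt 2 h. The far end of chromosome 6 held this position for both cold 12 h and heat 3 h. Region chr6:31089219-31089642 had 334 bp in the control and a peak in every list but cold 12 h, and chr6:31029837-31030202 had 366 bp in the control and none after heat 3 h or salt 6 h. For cold 24 h the region was chr8:85604-85849, for heat 30 min chr3:445048-445293 and for salt 2 h chr4:210021-210448, with control fold enrichments of 2.88, 2.65 and 2.95. The chromosome 3 region was absent from 5 lists and had a peak in the control and salt 2 h only.

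Where a region had a peak in both lists, its covered bases were set against each other. Of the 2536 end regions shared by the control and cold 12 h, 456 were covered at least 1.5 times more after cold 12 h (18.0%, background 16.2%) and 155 at least 1.5 times less (6.11%, background 6.24%). Cold 24 h had 234 wider regions (8.97%, background 6.86%) and 89 narrower (3.41%, background 4.04%), and heat 30 min had 419 wider (15.9%, background 13.1%) and 83 narrower (3.15%, background 3.25%). For heat 3 h the order was turned, with 173 wider (7.35%, background 5.61%) and 348 narrower (14.8%, background 16.0%), and likewise for salt 6 h, with 65 wider (2.84%, background 3.23%) and 384 narrower (16.8%, background 16.1%). Salt 2 h had 103 wider (4.01%, background 4.01%) and 126 narrower (4.90%, background 5.45%). The median ratio to the control at the ends lay between 0.944 (heat 3 h) and 1.03 (heat 30 min), so most shared regions differed little in width.

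The 2056 end regions present everywhere had a median of 914 covered bases in the control, 1008 after cold 12 h, 959 after cold 24 h, 1004 after heat 30 min, 828 after heat 3 h, 916 after salt 2 h and 778 after salt 6 h. A region was most often widest in cold 12 h (587) or heat 30 min (501), together 52.9% (background 52.8%), and most often narrowest in heat 3 h (794) or salt 6 h (619), together 68.7% (background 64.3%). The 5 widest regions were present in every list and differed in how constant they were. Near the far end of chromosome 8, chr8:28402307-28406762 was covered over 4438 bp in the control and between 4413 and 4453 bp in the 6 stress lists, so its extent hardly differed. The widest of all, chr5:3138-9000, had 5368 bp in the control, 5801 bp after cold 24 h, 4641 bp after cold 12 h, 5044 bp after heat 30 min, 2756 bp after heat 3 h, 4889 bp after salt 2 h and 4105 bp after salt 6 h, and so was short after heat 3 h. Near the far end of chromosome 12, chr12:27220300-27225368 was covered over 4546 bp in the control and 2634 bp after salt 6 h. The remaining ones, chr5:29827832-29832551 and chr2:269299-273739, had 4000 and 3550 bp in the control and were least covered after salt 6 h, with 3327 and 3245 bp. In the control, the fold enrichment of these 5 regions was between 1.71 and 2.13, under the median of 2.45 for end regions. In other lists some ranked higher, such as chr12:27220300-27225368 at percentile 72.2 after salt 6 h.

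Fold enrichment was ranked only within its own list. The median percentile of the end regions was 47.5 after cold 12 h and 49.2 after heat 3 h, below the 51.9 and 53.3 of the rest, and in the other lists it was 55.1 in the control (rest 52.2), 53.3 after cold 24 h (52.5), 51.5 after heat 30 min (51.7), 55.2 after salt 2 h (52.1) and 55.8 after salt 6 h (52.3). Among the regions with a peak in every list, the ends were again below the rest for cold 12 h (62.2 against 65.2) and heat 3 h (59.1 against 61.1). The end peaks of cold 12 h and heat 3 h thus ranked lower within their lists, although cold 12 h covered the most bases at the ends and heat 3 h fewer than every list but salt 6 h. None of these gaps was tested.

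Within a stress, the later list held fewer end regions in each case. It also held fewer peaks over the whole genome. These were 102210 against 110010 for cold, 91083 against 108147 for heat and 87437 against 97058 for salt. What this contributed to the counts below was not tested. Of the 3142 end regions with a cold 12 h peak, 492 had none after cold 24 h (15.7%, background 15.1%), while 191 of the 478 without one had a peak at 24 h (40.0%, background 42.7%). For heat, 696 of 3117 regions of the 30 min list had no peak after 3 h (22.3%, background 22.9%) and 109 of 503 had one only after 3 h (21.7%, background 23.2%). For salt, 377 of 2693 regions of the 2 h list had none after 6 h (14.0%, background 13.0%) and 63 of 927 had one only after 6 h (6.80%, background 7.64%). More regions were without a later peak than newly had one at 22 of 22 ends for heat and for salt and at 21 for cold, with equal numbers at the last. The largest count at a single end was 50 regions, at the far end of chromosome 3 between heat 30 min and heat 3 h. Regions present at both times were covered at least 1.5 times less at the later time in 350 cases for cold (13.2%, background 13.6%), 548 for heat (22.6%, background 23.9%) and 331 for salt (14.3%, background 12.6%). They were covered at least 1.5 times more at the later time in 165 cases for cold (6.23%, background 5.65%), 72 for heat (2.97%, background 3.04%) and 35 for salt (1.51%, background 1.40%).

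The border at 500 kb is a convention. The last region inside it was chr2:35433829-35437063, whose midpoint lay 499.96 kb from the far end and which had a peak in all 7 lists, and the first outside it was chr12:27029735-27029936, with a control peak only.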

How the data were processed

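FAIRE-seq of rice seedlings was analysed from 7 peak lists, 1 per condition. Bowtie2 alignment against IRGSP 1.0 and MACS2 calling of broad peaks were done by the authors, who had dropped duplicates, poorly mapped reads and those falling where organelle DNA is inserted. How the 2 replicates were combined is not given in the sources used here. The deposited peak starts and ends, the deposited fold enrichment (a ratio to the expected background) and the deposited −log10 q of each peak were used. Fold enrichment served to rank peaks within a list and to describe single regions. Its raw values do not compare the lists, whose medians at end regions ran from 1.90 (cold 12 h) to 3.16 (salt 6 h).

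Peaks of all lists were merged, and covered bases were counted in windows of 500 kb at 22 of the 24 ends. Merged regions and covered bases were computed a second way, by bedtools 2.31.1, and matched (119009 regions, and end windows in 7 of 7 lists). Background is the share among all regions, ends included. SDs are over the 22 ends, and shares have 95% Wilson intervals for counting error. The overlap functions were tested on simulated data. Members, comparisons and the rule for the regions named (nearest each end, widest, ends with the highest and lowest covered share, strongest with and without a control peak, at the border) were chosen with earlier results of these data known, and values of ends singled out for their differences were chosen after they were seen. Alternatives were a −log10 q of at least 2, equal numbers of peaks, ends of 250 kb or 1 Mb, all 24 ends, regions in at least 2 lists and 50% of a region covered. Sequences and genes were not analysed, since no genome or annotation of IRGSP 1.0 was used here, and the 2 RNA-seq libraries were not used. Coordinates are from 1. Python 3.11.15, numpy 2.4.6, pandas 2.3.3, scipy 1.17.1 and matplotlib 3.10.9 were used.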

Additional observations from a re-analysis of the deposited data

Results flagged for a closer look

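The heat lists went in opposite directions at every chromosome end. Covered bases in the end windows were 18.0% above the control after heat 30 min, with a positive value at 22 of 22 ends, and differed from it by -12.3% after heat 3 h, with a negative value at 22 of 22 ends. With a single list for each heat time, the difference between them was not tested. With equal numbers of peaks per list the values were 9.24% and -6.37%. The rest of the genome had the same signs, with 14.9% and -15.7%.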

How the results depend on the processing

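Up to 9 alternatives were tried for 32 results, 2 of them (without the position 0 end of chromosome 9, and without the far end of chromosome 6) chosen after seeing the data, and these 2 moved no result beyond its spread. A share of regions was taken as moved when it left its 95% Wilson interval, and a covered share or a difference when it left 1 SD over ends. In all, 220 values stayed within the spread with no change of sign, 44 moved and 5 changed sign. Those 5 also lay within their spread, which included 0. No paired analysis was possible because each condition has 1 list for both replicates, so no replicate could be left out either, and depth limits could not be set without read counts. The cause of the values below was not tested.

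With equal numbers of peaks (87437 per list), the difference of the end windows from the control was 9.68% (cold 12 h), 9.24% (heat 30 min), -6.37% (heat 3 h) and -9.96% (salt 6 h), that of salt 2 h turned to 0.20%, and the gap between ends and rest for cold 12 h turned to -0.29 points. Regions with a peak in all lists were 53.3%, control regions without a stress peak 15.4% (cold 12 h), 9.05% (cold 24 h), 11% (heat 30 min), 8.03% (salt 2 h) and 14.4% (salt 6 h), and regions without a control peak that had a stress peak 46.2% (cold 12 h), 40.0% (heat 30 min), 38.3% (heat 3 h), 24.2% (salt 2 h) and 35.7% (salt 6 h). With peaks limited to a −log10 q of 2 or more, the last shares were 62.5% (cold 12 h), 30.4% (cold 24 h), 60.0% (heat 30 min), 19.7% (salt 2 h) and 13.8% (salt 6 h), and 16.8% of control regions had no heat 3 h peak. With regions in at least 2 lists, 64.3% had a peak in all lists, control regions without a stress peak were 7.0% (cold 12 h), 4.36% (cold 24 h), 3.41% (heat 30 min) and 5.79% (salt 2 h), and regions without a control peak that had a stress peak 79.2% (cold 12 h), 47.8% (cold 24 h), 82.4% (heat 30 min), 32.7% (heat 3 h), 23.8% (salt 2 h) and 14.9% (salt 6 h). With 50% of a region covered, run only for the 13 results on presence, these were 39.1% in all lists, 12.3%, 8.80%, 7.16%, 26.1%, 10.9% and 27.3% of control regions without a stress peak (cold 12 h to salt 6 h), and 31.5% for cold 24 h among regions without a control peak.

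With ends of 250 kb, 59.0% of regions had a peak in all lists, 5.68% (salt 2 h) and 14.6% (salt 6 h) of control regions had no stress peak, 17.6% of regions without a control peak had a heat 3 h peak, and the gap between ends and rest for salt 6 h turned to 0.83 points. The gap for salt 2 h turned to -0.33 points with ends of 1 Mb and to -0.12 with all 24 ends.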
